A study of Homo sapiens with 5 samples.

Results

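The replication-dependent core histone genes of the human SCLC line NCI-H209 were followed in 3 control cultures and in 2 cultures kept for 24 h with human brain microvascular endothelial cells (HBMECs). They were chosen by name: every gene whose deposited symbol starts with HIST1 to HIST4 followed by H2A, H2B, H3 or H4 was taken, and symbols marked as pseudogenes by a closing PS were left out. This gave 60 genes of 64837 entries in the count files, with 15 genes of type H2A, 19 of type H2B, 12 of type H3 and 14 of type H4. Of these, 45 lie in cluster HIST1 on chromosome 6, 14 in cluster HIST2 on chromosome 1, and HIST4H4 stands by itself on chromosome 12. Enough reads for a test were found for 49 genes, and the other 11 are accounted for further on. NCI-H209 is an established line of a single tumor and was not genetically altered in either group. NCI-H209 cells were kept in RPMI medium with fetal bovine serum and HBMECs in RPMI medium with fetal bovine serum and Nu-serum. The medium during co-culture is not given in the sources used here. In the co-cultured group the HBMECs sat on a Transwell membrane above the tumor cells, and the tumor cells alone were collected, while the control group was the parental line without HBMECs. RNA was depleted of ribosomal RNA and sequenced with strand kept, which also captures messages without a poly(A) tail.

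A nucleosome is an octamer of the core histones H2A, H2B, H3 and H4 around which DNA is wound. H3 and H4 enter as a tetramer and H2A with H2B as dimers. Cells in S phase draw their supply from many nearly identical intronless genes that are switched on together through the cofactor NPAT at histone locus bodies. Their messages end in a conserved stem-loop in place of a poly(A) tail, which is bound by SLBP and cut with the help of the U7 snRNP, and they are degraded when DNA synthesis stops. Many H2A and H2B genes stand head to head and share 1 promoter region. Some genes, HIST2H2BE among them, can also give polyadenylated messages, which are known from cells that have left the cycle.

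The stem-loops show the feature that sets these messages apart. Of the members whose annotated transcript runs past the stop codon, 15 held the form with a loop of 4 bases shown first, and the H4 genes differed from it inside the stem. The letters are from the GENCODE release 29 transcripts on GRCh38, with the stem and loop in capitals.
HIST2H2BE: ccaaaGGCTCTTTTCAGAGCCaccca
HIST1H2BF: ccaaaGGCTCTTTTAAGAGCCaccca
HIST4H4: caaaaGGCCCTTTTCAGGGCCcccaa
The form of HIST1H2BF was found in 4 members (HIST1H2BC, HIST1H2BD, HIST1H2BF and HIST1H3G), and that of HIST4H4 in 5 members, all of type H4.

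The promoters of the types differ in their letters. The RefSeq table (GRCh38.p14) gave a window from 250 bases before to 50 after the start for 48 of the 60 genes. The 8 letters ATTTGCAT, the octamer long known from H2B promoters, were found on either strand in 9 of 12 H2B and 10 of 14 H2A windows, in 0 of 10 H3 and 0 of 12 H4 windows, and in 1.8% of all windows in the table. The letters GGTCCG, part of the H4 promoter element bound by HINFP, were found in 12 of 12 H4 windows, in 1 H2A, 1 H2B and 1 H3 window, and in 11.2% of all windows. The windows of head-to-head H2A and H2B genes overlap, so the same site can be counted for both types. The H2A and H2B windows with GGTCCG, those of HIST2H2AC and HIST2H2BE, share the same stretch. The 100 bases before the start are shown for 3 H2B genes whose counts fell, for 3 H4 genes whose counts rose and for the H3 gene of the largest log2 fold change. Capitals mark ATTTGCAT in H2B genes, GGTCCG in H4 genes and CCAAT in the H3 gene.
HIST2H2BE (chr1:149886683-149886782, minus strand): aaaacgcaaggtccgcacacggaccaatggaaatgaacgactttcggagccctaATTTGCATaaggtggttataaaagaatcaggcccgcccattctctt
HIST2H2BF (chr1:149812371-149812470, minus strand): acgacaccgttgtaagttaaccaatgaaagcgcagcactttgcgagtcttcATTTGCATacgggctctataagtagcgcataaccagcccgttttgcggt
HIST1H2BM (chr6:27814922-27815021, plus strand): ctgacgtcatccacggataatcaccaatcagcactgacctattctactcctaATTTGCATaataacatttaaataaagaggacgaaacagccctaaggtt
HIST4H4 (chr12:14771132-14771231, minus strand): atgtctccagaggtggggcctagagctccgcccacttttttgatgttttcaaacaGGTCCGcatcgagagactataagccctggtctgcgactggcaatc
HIST1H4D (chr6:26189113-26189212, minus strand): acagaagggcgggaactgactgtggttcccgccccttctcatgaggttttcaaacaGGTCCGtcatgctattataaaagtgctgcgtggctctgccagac
HIST1H4L (chr6:27873535-27873634, minus strand): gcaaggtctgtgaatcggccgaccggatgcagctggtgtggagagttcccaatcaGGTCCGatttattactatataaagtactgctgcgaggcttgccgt
HIST2H3D (chr1:149813694-149813793, minus strand): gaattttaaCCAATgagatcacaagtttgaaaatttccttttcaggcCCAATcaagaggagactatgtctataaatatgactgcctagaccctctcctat
The octamer began 46 to 49 bases before the start in 6 of the 12 H2B windows, and GGTCCG began 44 to 47 bases before it in all 12 H4 windows. CCAAT, on either strand, was found in 14 of 14 H2A, 12 of 12 H2B, 10 of 10 H3 and 3 of 12 H4 windows, against 35.7% of all windows. In the window of HIST2H2BE the reverse-strand match of GGTCCG runs into a CCAAT match. These are matches of letters and not sites of binding.

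Each control library held 17317045 to 19157348 counts on genes, and the co-cultured ones held 18918787 and 15457071. Levels are given as CPM, the count scaled to a library of 1000000, in which 3 counts stood for 0.157 to 0.194. The co-cultured libraries had 16.8% and 15.9% unmapped reads against 8.13% to 8.48% in control. Reads assigned to no gene were 40.1% and 40.8% in co-culture against 47.3% to 51.2% in control. The part of these differences in the results was not tested. Control 1 stood apart from the other control libraries on the second principal component, which held 18.3% of the variance, and had the highest summed CPM of core histone genes in control. Of 10 neuroendocrine markers tested, 3 were higher and 2 lower in co-culture, where 18.4% and 15% of all genes tested were (5 higher without control 1, 0 lower without either co-cultured library), and CHGA was at the floor. Of 18 endothelial markers 7 were at or under 3 counts in every library and MMRN1 and PLVAP were at 0. Their summed level was 9.88 to 21.4 CPM in control and 13.2 to 13.6 CPM in co-culture, and the 9 tested had a median log2 fold change of -0.09. By edgeR 1 was higher, ESAM with 3, 4 and 6 control counts and with 21 and 14 counts in co-culture, a call lost without co-cultured 1. None was lower by edgeR, against 1 at an unadjusted p under 0.05, 1 by DESeq2, 1 by edgeR's exact test and 3 without control 3. FLT1 had the lowest log2 fold change at -3.97, with 30, 28 and 0 control counts and 1 in each co-cultured library, and TEK (-1.85) and KDR (-1.30) were likewise lower in control 3 than in the other control libraries.

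The composition of the core histone counts shifted from H2B toward H4 and H3 in co-cultured NCI-H209 cells. H2B genes held 34.0%, 34.9% and 35.5% of the core histone counts in control and 24.4% and 24.3% in co-culture. H4 genes went the other way, with 19.7%, 19.5% and 19.1% in control and 27.1% and 27.0% in co-culture. H3 genes held 22.0%, 21.6% and 21.9% in control and 24.4% and 24.8% in co-culture. For these 3 types the groups did not overlap, whereas the share of H2A genes did, at 23.5% to 24.3% in control and 23.9% and 24.1% in co-culture. These shares are taken within each library, so they do not depend on the scaling between libraries. They rest on reads of a unique place, as do the ratios below, so genes with identical coding copies are nearly absent from them. These are HIST1H4J, HIST1H4K, HIST2H4A and HIST2H4B, HIST2H3A and HIST2H3C, and HIST2H2AA3 and HIST2H2AA4.

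**Figure D1:**
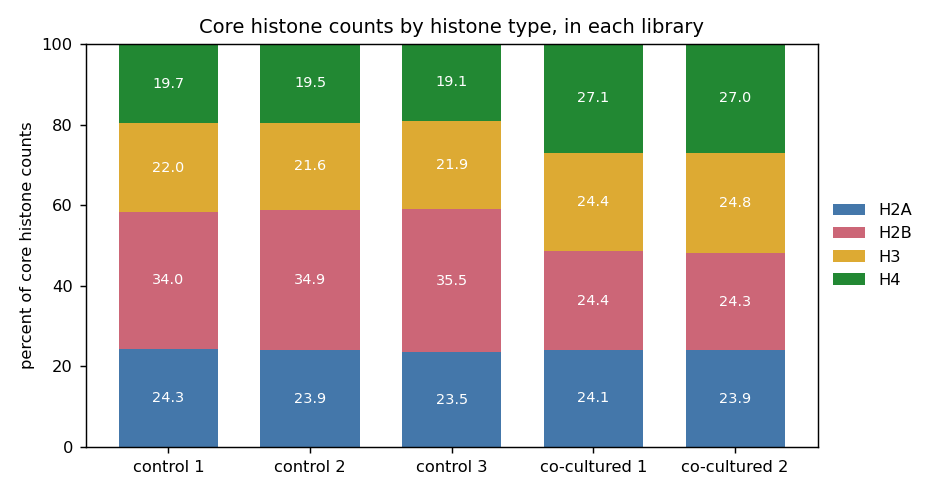
Stacked bars give the percent of core histone counts from H2A, H2B, H3 and H4 genes (y axis) in each of the 3 control and 2 co-cultured libraries (x axis). H2B took 34.0% to 35.5% in control and 24.3% to 24.4% in co-culture, and H4 went from 19.1% to 19.7% up to 27.0% to 27.1%.

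The ratio of H2B to H4 counts was 1.73, 1.79 and 1.86 in control and 0.900 in both co-cultured libraries. The smallest 1-sided p that an exact permutation test of 3 libraries against 2 allows is 0.1, so no p is given for such single values. The ratio did not rest on the few members of the largest changes: without HIST2H2BE, HIST2H2BF and HIST4H4, which were picked after their values were seen, it was 1.53, 1.54 and 1.61 in control and 0.944 and 0.930 in co-culture. Within cluster HIST1 alone it was 1.50 to 1.57 in control and 0.916 to 0.928 in co-culture. The ratio of H2B to H2A counts was 1.40, 1.46 and 1.51 in control and 1.01 in both co-cultured libraries.

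The amount of core histone message as a whole changed less than its make-up. The summed CPM was 9134, 6467 and 7287 in control and 8449 and 9364 in co-culture, a ratio of means of 1.17 with overlapping groups. Core histone genes took 0.675% to 0.897% of all counts in control and 0.817% and 0.917% in co-culture. By type the ratio of mean summed CPM was 1.62 for H4, 1.31 for H3, 1.17 for H2A and 0.817 for H2B. The groups did not overlap for H4 and H3 but did for H2A and H2B. The H2B sum was 2260 to 3104 CPM in control and 2058 and 2273 CPM in co-culture. Without HIST2H2BE and HIST2H2BF, picked after their values were seen, it was 1758 to 2480 CPM and 1814 and 2015 CPM, a ratio of 0.921. In these bulk libraries a change in the number of cells in S phase and a change in the message per cell cannot be told apart.

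Among the 49 genes tested with edgeR's quasi-likelihood test, 14 were higher in co-culture at an adjusted p under 0.05 and 9 were lower, while 26 did not pass. Over all 20360 genes tested, 18.4% were higher and 15% were lower (3750 and 3059 genes, or 3076 and 3929 with upper-quartile normalization, under which the members still had 14 and 9). The median log2 fold change was 0.03 over the members and -0.03 over all genes tested. The study took DEGs by a fold change beyond 1 and a p under 0.05. With these read as a log2 fold change and an unadjusted p, 6 members were upregulated DEGs and 3 were downregulated DEGs, against 5.44% and 5.01% of all genes. Both co-cultured libraries lay above all control libraries for 16 members and below for 9, against 29.4% and 30% of all genes. Counts of calls depended on single libraries: the 14 higher calls became 24 without control 1, 9 without co-cultured 1 and 6 without co-cultured 2, and the 9 lower calls became 4 and 5 without co-cultured 1 and 2. The calls of 10 members held in all 13 alternative settings, namely HIST2H2BE, HIST2H2BF, HIST1H2BF, HIST1H2BM, HIST2H3D, HIST1H3I, HIST1H3C, HIST4H4, HIST1H4D and HIST1H4L.

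**Figure D2:**
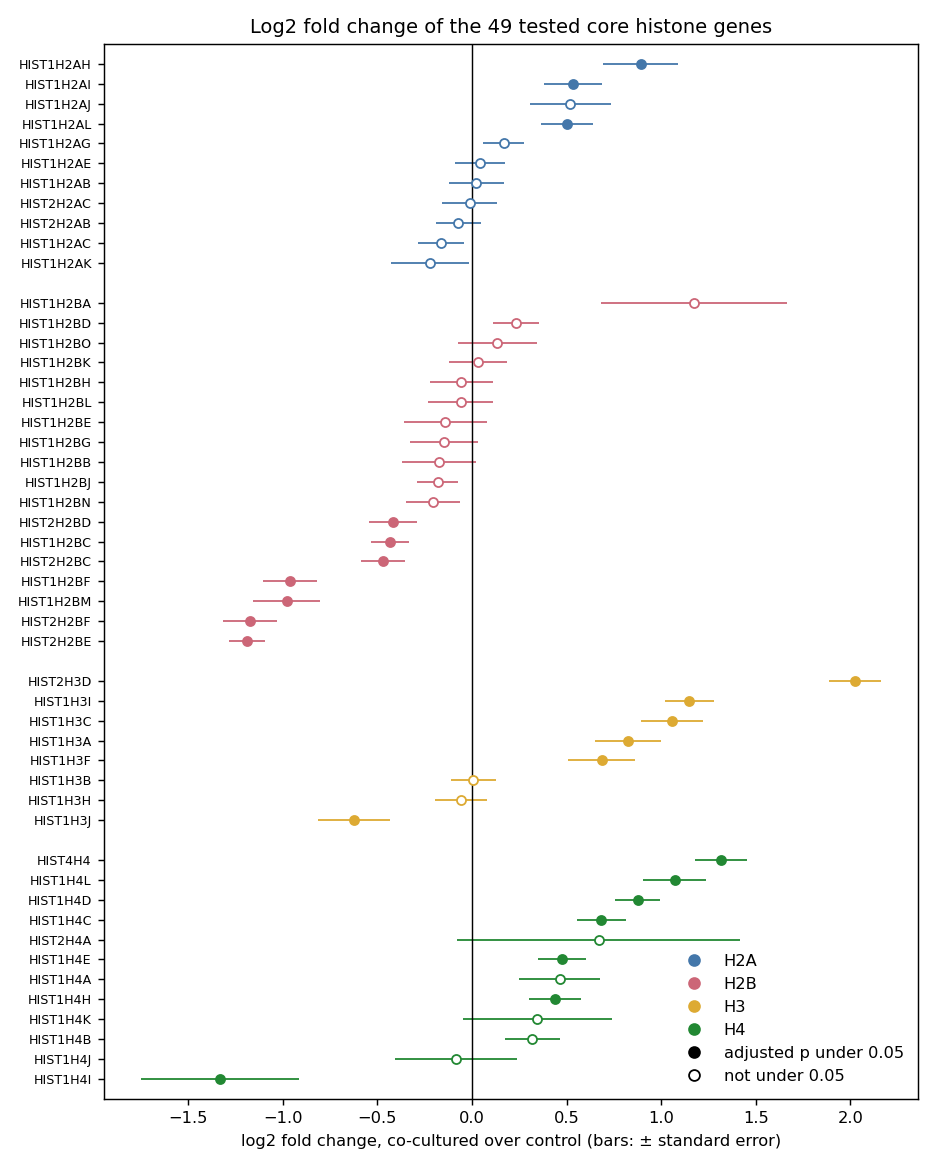
Points give log2 of the ratio of co-cultured to control levels (x axis) for the 49 tested core histone genes (y axis), grouped and colored by type, with bars for ± the standard error. Filled points have an adjusted p under 0.05. The 7 filled H2B points lie to the left of 0, whereas 6 of 7 filled H4 points and 5 of 6 filled H3 points lie to the right.

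Of 18 tested H2B genes, 7 were lower and 0 were higher in co-culture by edgeR, beside 15% and 18.4% of all genes. The lower calls include the transcribed pseudogenes HIST2H2BC and HIST2H2BD, whose counts are uncertain. DESeq2 called 6 H2B genes lower and 0 higher. At an unadjusted p under 0.05, 1 was higher, the testis gene HIST1H2BA at 0.166 to 0.372 CPM in control and 0.661 and 0.711 CPM in co-culture. The median log2 fold change of the type was -0.18. Without control 1, however, 5 H2B genes were called higher, namely HIST1H2BA, HIST1H2BD, HIST1H2BH, HIST1H2BK and HIST1H2BO, with log2 fold changes of 1.35, 0.35, 0.17, 0.22 and 0.43, and without co-cultured 1 the lower calls numbered 4.

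HIST2H2BE (current symbol H2BC21, chr1:149884459-149886652), which encodes an H2B of cluster HIST2, had 296, 268 and 319 CPM in control and 132 and 126 CPM in co-culture. The groups lay well apart, and the log2 fold change was -1.19 ± 0.09 (SE; adjusted p = 6.28e-05), which is 2.28-fold lower. HIST2H2BF (chr1:149782689-149812373) had 327, 233 and 264 CPM in control and 112 and 132 CPM in co-culture, with a log2 fold change of -1.17 ± 0.14 (adjusted p = 0.000434). Its highest control library was control 1, and its lowest control value was still above both co-cultured libraries. Part of the coding sequence of both genes occurs in other copies (19.5% and 37.9% of its stretches of 100 bases), so reads from those stretches could be lost or split. Here and below such stretches were taken from the coding sequence of a single transcript, or from a whole transcript for pseudogenes. They were searched on either strand of all annotated transcripts.

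In cluster HIST1, HIST1H2BF (chr6:26199520-26200715) had 171, 123 and 141 CPM in control and 67.9 and 81.1 CPM in co-culture, a log2 fold change of -0.96 ± 0.14 (adjusted p = 0.00114). It encodes the same protein as HIST1H2BC, HIST1H2BE and HIST1H2BG, which differed in their change. HIST1H2BC fell from 301 to 223 CPM in the mean, by 0.43 on the log2 scale (adjusted p = 0.00996), whereas HIST1H2BG was at 132 to 214 CPM in control and 136 and 166 CPM in co-culture and HIST1H2BE at 3.04 to 4.15 and 3.33 to 3.37 CPM, both with overlapping groups. HIST1H2BM, a gene of low level, had 25.2, 16.9 and 18.9 CPM in control and 10.4 and 10.2 CPM in co-culture, with a log2 fold change of -0.98 ± 0.18 (adjusted p = 0.00315). The remaining lower calls were the transcribed pseudogenes HIST2H2BC (log2 fold change -0.47) and HIST2H2BD (-0.42), which lie over each other on opposite strands and share 77.5% and 94.4% of their stretches of 100 bases with each other, so that their counts are uncertain.

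The other H2B genes stayed closer to 0. HIST1H2BK was at 289 to 444 CPM in control and 354 and 374 CPM in co-culture (log2 fold change 0.03 ± 0.15), with 28.4% of its stretches also in H2BFS, and HIST1H2BD at 283 to 385 and at 373 and 408 CPM (0.23 ± 0.12). The other 8 that did not pass, without HIST1H2BA, had log2 fold changes between -0.20 for HIST1H2BN and 0.13 for HIST1H2BO. The octamer was present in the windows of all 3 lower H2B genes with a window and in 6 of the 9 that did not pass.

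Of 12 tested H4 genes, 6 were higher in co-culture and 1 was lower, beside 18.4% and 15% of all genes. The median was 0.47 on the log2 scale. All 8 H4 genes with a mean of at least 10 CPM had a log2 fold change above 0. The 14 H4 members encode 1 identical protein. The higher calls numbered 4 and 3 without co-cultured 1 and 2, 8 without control 1, and 4 without control 2 or control 3.

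HIST4H4 (current symbol H4C16, chr12:14767999-14771131), the H4 gene outside the clusters, had 173, 117 and 146 CPM in control and 364 and 359 CPM in co-culture. Both co-cultured libraries lay far above control 1, the highest of the control libraries, and the log2 fold change was 1.31 ± 0.14 (adjusted p = 0.00021), or 2.49-fold. Its part of all H4 counts went from 9.26% to 10.5% in control to 15.9% and 14.2% in co-culture. HIST1H4D (chr6:26188765-26189076) had 207, 155 and 172 CPM in control and 309 and 345 CPM in co-culture, with a log2 fold change of 0.88 ± 0.12 (adjusted p = 0.000762). HIST1H4L (chr6:27873199-27873510) had 99.5, 66.4 and 64.9 CPM in control and 151 and 173 CPM in co-culture, with a log2 fold change of 1.07 ± 0.17 (adjusted p = 0.00153). For both genes control 1 was the highest control library and lay below both co-cultured libraries.

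HIST1H4C, the H4 gene of the highest level per coding length, had 427, 311 and 342 CPM in control and 537 and 619 CPM in co-culture, a log2 fold change of 0.68 ± 0.13 (adjusted p = 0.00409). HIST1H4E had 392, 293 and 300 CPM in control and 431 and 482 CPM in co-culture (0.48 ± 0.13, adjusted p = 0.0196), and HIST1H4H rose by less, to 1.36-fold. HIST1H4B and HIST1H4A did not pass, at 114 to 167 against 161 and 182 CPM and at 84.0 to 156 against 147 and 162 CPM, and in both the co-cultured values reached into the range of control 1. The lower call was HIST1H4I, which rests on 19, 20 and 30 control counts and on 7 and 9 counts in co-culture and was lost without either co-cultured library, without control 2 or control 3, by DESeq2 (adjusted p = 0.0985) or with unstranded counts (log2 fold change -0.19, adjusted p = 0.502). It also had 503 reads on the opposite strand. HIST1H4I, too, has GGTCCG in its window, as do all 5 higher H4 genes with a window.

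Of 8 tested H3 genes, 5 were higher and 1 was lower, beside 18.4% and 15% of all genes. The median was 0.75 on the log2 scale. HIST2H3D (current symbol H3C13, chr1:149813271-149813681), which encodes H3.2, had 20.5, 14.8 and 15.4 CPM in control and 63.9 and 73.6 CPM in co-culture. No other tested member had a larger log2 fold change, at 2.02 ± 0.14 (adjusted p = 4.03e-05), or 4.07-fold. It lies next to HIST2H2BF, which fell, on the same strand of chromosome 1. Of its stretches of 100 bases 51.3% occur in other copies such as HIST2H3A and HIST2H3C, and reads from those stretches could be lost.

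The 9 H3 members of cluster HIST1 encode H3.1 from identical protein sequences. HIST1H3I (chr6:27871905-27872315) had 202, 146 and 165 CPM in control and 353 and 405 CPM in co-culture, with a log2 fold change of 1.15 ± 0.13 (adjusted p = 0.000299). HIST1H3C (chr6:26045411-26045821) had 98.8, 63.3 and 68.9 CPM in control and 153 and 167 CPM in co-culture, with a log2 fold change of 1.06 ± 0.16 (adjusted p = 0.00138). HIST1H3A and HIST1H3F also rose, to 1.77-fold and 1.61-fold. In each of these genes both co-cultured libraries lay above control 1, the highest of the control libraries.

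HIST1H3B, the core histone gene of the highest level per coding length in control, did not follow. It had 675, 523 and 612 CPM in control and 562 and 651 CPM in co-culture, with a log2 fold change of 0.01 ± 0.12, and its part of all H3 counts went from 33.5% to 38.3% in control to 27.2% and 28.0% in co-culture. HIST1H3H likewise overlapped between the groups, at 241 to 346 and at 260 and 294 CPM. HIST1H3J, the H3 gene called lower, shares 44.6% of its exonic length with HIST1H2AM on the same strand, where reads are ambiguous. HIST1H3J fell from 182, 116 and 113 CPM in control to 85.3 and 92.7 CPM in co-culture (log2 fold change -0.62, adjusted p = 0.032), a call that was lost without either co-cultured library and with unstranded counts. Without co-cultured 2 the higher H3 calls numbered 3.

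Of 11 tested H2A genes, 3 were higher and 0 were lower by edgeR, beside 18.4% and 15% of all genes. At an unadjusted p under 0.05 and by DESeq2, 0 were lower as well. HIST1H2AH (chr6:27147129-27147515) had 99.7, 60.9 and 58.8 CPM in control and 129 and 142 CPM in co-culture, with a log2 fold change of 0.89 ± 0.20 (adjusted p = 0.00794). HIST1H2AL had 246, 179 and 183 CPM in control and 265 and 309 CPM in co-culture (0.50 ± 0.14, adjusted p = 0.022). HIST1H2AI had 315, 206 and 245 CPM in control and 348 and 393 CPM in co-culture (0.53 ± 0.15, adjusted p = 0.0254). Of its stretches of 100 bases 79.3% occur in HIST1H2AJ as well, so its counts are uncertain. In all 3 genes control 1 lay nearer to the co-cultured libraries than the other control libraries did, and the number of higher H2A calls was 6 without it, 1 without control 2, control 3 or co-cultured 1, and 0 without co-cultured 2. The other 8 H2A genes had overlapping groups, with log2 fold changes from -0.22 for HIST1H2AK to 0.52 for HIST1H2AJ. HIST1H2AK lies within the annotated HIST1H2BN on the opposite strand. Its stretches are thus found there in reverse, at the same place and not in a copy, and the stranded counts keep the genes apart.

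**Figure D3:**
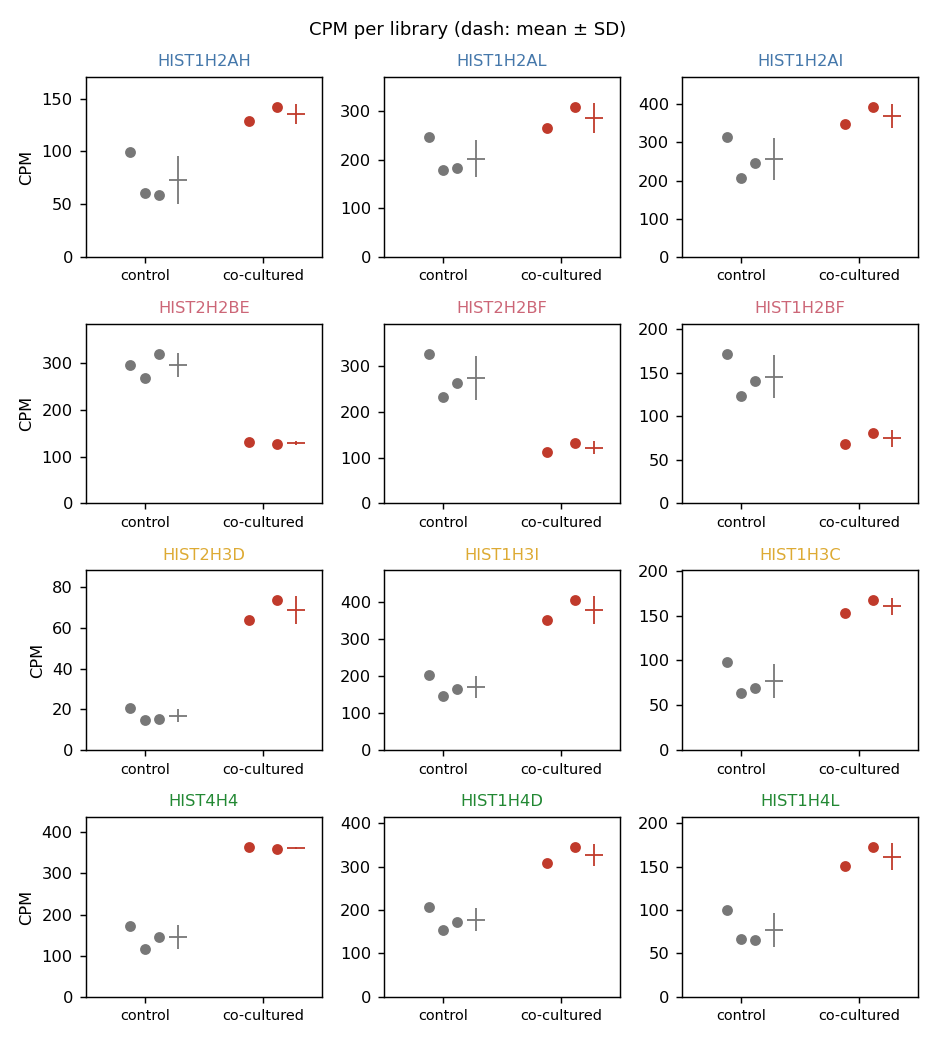
Points give CPM (y axis, from 0) in the single control and co-cultured libraries for the 3 tested genes with the smallest p of each type (rows from top: H2A, H2B, H3, H4), with dashes and bars for the mean ± SD beside them. The co-cultured points of the 3 H2B genes lie below all control points, and those of the other 9 genes lie above them.

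The head-to-head H2A and H2B genes allowed a comparison inside shared promoter regions. Starts on opposite strands within 500 bases were found for 11 pairs of members, and both genes were tested in 7. In all 7 pairs the log2 fold change of the H2B gene was below that of its H2A neighbor, with differences of -1.50 to -0.19. The pairs rest on GENCODE starts, which leave out HIST1H2AK and HIST1H2BN. By RefSeq these genes also stand head to head, with overlapping windows on opposite strands. Their log2 fold changes were -0.22 and -0.20, so there the H2B gene was not below its H2A neighbor. The ratio of H2B to H2A counts was lower in both co-cultured libraries than in all control libraries for 6 pairs, while among 1547 head-to-head pairs of all tested genes the ratio did not overlap between groups, in either direction, for 58.4%. No test was made of the direction of these pairs as a set.

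The pair of HIST1H2AJ and HIST1H2BM, with starts 304 bases apart, had 0.187, 0.229 and 0.229 H2B counts per H2A count in control and 0.0800 and 0.0689 in co-culture. HIST1H2AJ shares 80.9% of its stretches of 100 bases with HIST1H2AI, so the H2A counts of this pair and of the pair with HIST1H2BL are uncertain. For HIST2H2AC and HIST2H2BE, whose promoter letters are shown above in the direction of HIST2H2BE, the ratio was 0.914, 1.20 and 1.30 in control and 0.537 and 0.454 in co-culture. HIST2H2AC itself was at 223 to 324 CPM in control and 246 and 279 CPM in co-culture, with a log2 fold change of -0.01 ± 0.15. In these pairs the H2B gene was lower and the H2A gene was not called. For HIST1H2AH and HIST1H2BK it was the reverse: the H2A gene rose, the H2B gene was at 0.03, and the ratio went from 4.45, 4.75 and 5.69 to 2.74 and 2.63. The pair of HIST1H2AE and HIST1H2BG overlapped, at 0.637 to 0.733 in control and 0.570 and 0.642 in co-culture.

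**Figure D4:**
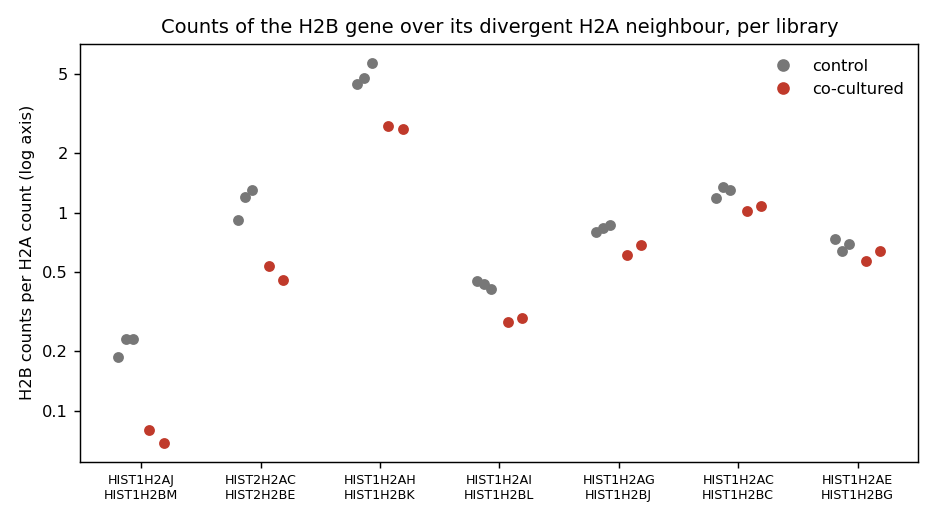
Points give the counts of the H2B gene per count of its head-to-head H2A neighbor (y axis, log axis) in the single control and co-cultured libraries for the 7 pairs with both genes tested (x axis). The co-cultured points lie below all control points in 6 pairs and overlap with them for HIST1H2AE and HIST1H2BG.

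By genome position, cluster HIST1 had 12 higher and 5 lower calls among 40 tested genes (30% and 12.5%, beside 18.4% and 15% of all genes). Of these, 7 and 2 stood in the stretch from HIST1H2AA to HIST1H4H and 5 and 3 in that from HIST1H2BJ to HIST1H2BO. Calls of both directions thus stood in both stretches. Cluster HIST2 had 1 higher and 4 lower calls among 8 tested genes. All 4 were of type H2B, with the pseudogenes HIST2H2BC and HIST2H2BD of uncertain counts among them. The summed CPM of the cluster, from which genes with identical coding copies are nearly absent, went from 843 to 1091 in control to 652 and 712 in co-culture. The fall lay in HIST2H2BE and HIST2H2BF, with means of 295 and 275 CPM in control and 129 and 122 CPM in co-culture. HIST2H3D rose. The H2A genes of the cluster, HIST2H2AB (61.6 to 83.4 CPM in control, 66.2 and 70.3 in co-culture) and HIST2H2AC, did not pass, and HIST2H4A was at most 0.595 CPM. Of the 9 members listed as known to give polyadenylated messages, 3 were lower (HIST2H2BE, HIST2H2BF and HIST1H2BC), 2 were higher (HIST4H4 and HIST1H4H) and 4 did not pass, with a median log2 fold change of -0.16 against 0.09 over the other members tested.

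Levels between genes were compared as mean CPM per kb of coding length, which is an upper figure for genes with long untranslated exons. In control the order was led by HIST1H3B with 1468 ± 186, HIST1H4C with 1153 ± 193 and HIST1H4E with 1052 ± 177 CPM per kb (SD, n = 3), and the differences between neighbors in this order were under 2 SD. In co-culture HIST1H4C came first with 1853, ahead of HIST1H3B with 1475 and HIST1H4E with 1463 CPM per kb. HIST4H4 went from 466 to 1159 CPM per kb, while HIST2H2BE went from 773 to 339 and HIST2H2BF from 721 to 320.

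**Figure D5:**
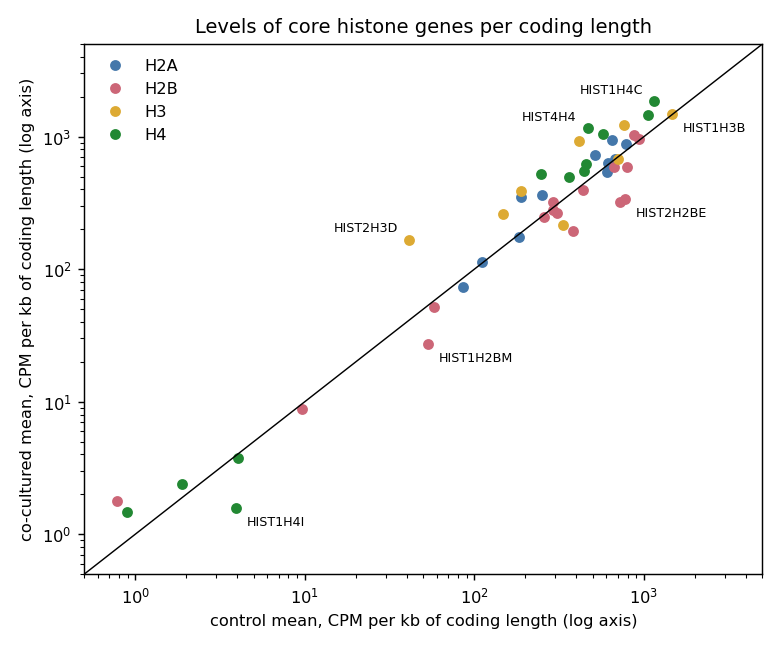
Points give mean CPM per kb of coding length in control (x axis, log axis) and in co-culture (y axis, log axis) for the tested protein-coding members, colored by type, with a line of equality. HIST2H3D (41.1 and 167), HIST4H4 (466 and 1159) and HIST1H4C (1153 and 1853) lie above the line, and HIST2H2BE (773 and 339), HIST1H2BM (53.4 and 27.1) and HIST1H4I (3.90 and 1.57) lie below it.

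The 11 members that were not tested had totals of 2 to 34 counts over the 5 libraries. HIST2H2AA3, HIST2H2AA4, HIST2H3A, HIST2H3C and HIST2H4B share 100% of their coding stretches of 100 bases with a copy, as do the tested HIST1H4J, HIST1H4K and HIST2H4A. A read that lies wholly inside such coding sequence has no unique place, so low counts do not show low expression. HIST1H2AM lies for 88.0% of its length under HIST1H3J on the same strand, where reads are ambiguous. The other 5, HIST1H2AA, HIST1H3E, HIST1H3G, HIST1H4F and the pseudogene HIST2H2BA, had at most 7 counts in total. A further 7 annotated protein-coding core histone genes, HIST3H2A, HIST3H2BB and HIST3H3 among them, lay outside the names used for the choice and had at most 1 count in total.

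Genes of histone supply were called in both directions, as were all genes tested, of which 18.4% were higher and 15% lower, and their counts are given as a description. Of 33 tested genes of histone message synthesis and processing, 8 were higher in co-culture and 5 lower, and their median change was 0.01 on the log2 scale. These counts fell to 3 and 0 without either co-cultured library, to 5 higher without control 2 or control 3, and were 10 lower without control 1 and 9 lower with upper-quartile normalization. LSM10, a subunit of the U7 snRNP that cuts histone messages, went from 16.4 ± 1.67 CPM in control to 32.0 ± 1.19 in co-culture (SD, n = 3 and 2; log2 fold change 0.96, adjusted p = 0.000375). LSM1, which acts in the decay of histone messages, and CPSF2, a partner of the cutting enzyme, rose by log2 fold changes of 0.60 and 0.47, and the S-phase cyclin gene CCNE2 by 0.35. HINFP, the factor of the H4 promoter element, fell from 33.4 ± 2.61 to 23.8 ± 0.678 CPM (log2 fold change -0.49, adjusted p = 0.00637), while H4 counts rose. CCNA2 and SRRT fell with log2 fold changes of -0.50 and -0.64.

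Other regulators, namely SLBP, NPAT, CASP8AP2 and CCNE1, did not pass. SLBP, which binds the stem-loop, was at 62.0 ± 0.360 CPM in control and 68.4 ± 2.25 in co-culture (adjusted p = 0.171), and NPAT at 138 ± 2.81 and 123 ± 8.68 CPM (adjusted p = 0.129). CASP8AP2, also of the histone locus body, and CCNE1 had log2 fold changes of 0.04 and -0.07.

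Among 9 tested genes of replication-independent variants, 3 were higher and 2 lower, or 1 and 1 without co-cultured 2. CENPA, the H3 variant of centromeres, went from 36.7 ± 3.73 to 16.4 ± 0.391 CPM (log2 fold change -1.16, adjusted p = 0.000177). H3F3B and H3F3A, which encode the same H3.3 protein, went apart: H3F3B rose from 655 ± 82.7 to 1023 ± 57.4 CPM (0.64, adjusted p = 0.00239) and H3F3A fell from 228 ± 23.5 to 160 ± 5.38 CPM (-0.51, adjusted p = 0.00429). H2AFZ and the macroH2A gene H2AFY2 rose, with log2 fold changes of 0.48 and 0.36, and H2AFX was at -0.06 (adjusted p = 0.607). Of 25 tested chaperones, 5 were higher and 3 lower, beside 18.4% and 15% of all genes. The higher calls numbered 1 without co-cultured 1, 3 without co-cultured 2, control 2 or control 3, 9 without control 1 and 3 with upper-quartile normalization, and the lower calls 1 without co-cultured 2 and 6 without control 1. HJURP, the chaperone of CENPA, fell from 173 ± 4.38 to 106 ± 4.84 CPM (-0.70, adjusted p = 0.000261). NASP and UBN2 fell with log2 fold changes of -0.45 and -0.43, whereas ATRX, ASF1B and CHAF1B rose by 0.44, 0.57 and 0.29.

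Of 49 tested genes of DNA replication and S phase, 11 were higher and 10 lower, beside 18.4% and 15% of all genes, with a median log2 fold change of 0.03. Without co-cultured 1 these were 3 and 4, without co-cultured 2 they were 5 and 3, without control 1 the higher calls numbered 17, and without control 2 or control 3 they numbered 7. The helicase subunits MCM5 and MCM7 and the clamp loader gene RFC3 fell, with log2 fold changes of -0.61, -0.54 and -0.51, while RFC2, the sliding clamp PCNA and the nucleotide enzyme DUT rose by 0.50, 0.53 and 0.46. Over these 4 lists together the 47 calls became 17 without co-cultured 1 and 17 without co-cultured 2.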

How the data were processed

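RNA-Seq was done on 3 control and 2 co-cultured NCI-H209 libraries. Per the labels, CASAVA 1.8, STAR 2.6.1b, DESeq2 and GRCh38 were named in the submitters' processing notes. The authors deposited counts of reads per gene for each library in STAR's layout, with 1 column for both strands and 1 for each strand, and the column of the directional kit was used (92.3% to 93.1% of stranded counts). Such counting keeps reads of a unique place and of 1 gene, so duplicated and overlapping histone genes lose reads. The authors' table over all libraries gave gene IDs and symbols. Its group means, fold changes and p-values were not used. IDs matched GENCODE release 29.

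In R 4.3.3, filterByExpr left 20360 genes, TMM set the library sizes, and the quasi-likelihood test of edgeR 4.0.16 compared the groups. Adjusted p-values follow Benjamini and Hochberg over all genes tested. The biological coefficient of variation was 10.2%. Levels are CPM, counts per 1000000 of the scaled library size, and SD and p-values measure only the spread between these cultures, which may be technical. On simulated data of this comparison with 20360 genes, 66 of 100 genes changed by 1 on the log2 scale were called. Of 100 genes changed by 2, 90 were called, and 20 unchanged genes were called as well. No other genes were changed there, whereas 3750 higher and 3059 lower genes were called in the data. The adjusted p depends on this share, so these rates need not hold for the data.

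The members and lists were chosen with earlier results of these data known. Values in every library are given for the 3 tested members of smallest p of each type and the 3 of highest level per coding length, and each tested member of HIST2 and HIST4 is named. From each list up to 3 called genes of smallest p in each direction are named, with SLBP, NPAT, CASP8AP2, HINFP, CCNE1, CCNE2, H3F3A, H3F3B, H2AFZ, H2AFX and CENPA. Alternatives were DESeq2 1.42.0, edgeR's exact test, scaling by median ratios or upper quartiles, a filter that asked for 1 count in any library or for 10 in each, a replicate block, unstranded counts and each library left out. Same-numbered libraries of the groups did not deviate together (r = -0.11 and -0.07), so the numbers were not taken as pairs. Motif letters were searched in RefSeq promoter windows, and plots were drawn with matplotlib 3.10.9.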

Additional observations from a re-analysis of the deposited data

How the results depend on the processing

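No called member changed direction in the 13 alternative settings. Of 23 called members, 10 kept their call in each setting that tested them and 13 lost it in at least 1, and 10 further members gained a call in at least 1, all 10 of them without control 1. When single libraries were left out, the number of higher members ran from 6 to 24, of lower members from 4 to 9, of members by the criterion for DEGs from 7 to 12, the median log2 fold change from -0.08 to 0.20 and the ratio of summed CPM from 1.09 to 1.30. By type the higher calls then ran from 0 to 6 for H2A, 0 to 5 for H2B, 3 to 5 for H3 and 3 to 8 for H4, and the lower calls from 4 to 7 for H2B and from 0 to 1 for H3 and for H4. Calls in the 4 lists of histone supply ran from 17 to 70. With 1 co-cultured library left, that library is assumed to vary as the control libraries do. With the replicate block the members had 15 higher and 6 lower calls, 8 by the criterion for DEGs, 0 lower H4 calls and 31 calls in the lists (3 higher and 3 lower in message processing, 2 higher chaperones and 7 higher genes of S phase), and 3 endothelial markers were lower. The single lower H4 call was also lost with DESeq2 and unstranded counts (0 each) and with the filter of 10 counts (0), which leaves HIST1H4I out of the test, and the single lower H3 call with unstranded counts (0). The cause of the other changes was not tested. Summed histone levels of the control libraries ran from 6467 to 9134 CPM, a spread that limits what 2 co-cultured libraries can show for small changes.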
